A study of Mus musculus with 18 samples.

Results

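The extracellular matrix genes described here are the collagens, laminins and fibulins together with Fn1, Sparc, Dcn, Lum, Eln and Postn, measured in lung tumours of mice in which p53 had or had not been restored. A gene was taken as a member when a probe set with 1 gene symbol carried a collagen chain name, a laminin chain name, a fibulin name or 1 of those 6 symbols, and each gene was read from the probe set with the highest mean. This gave 56 genes out of 12393 on the array, of which 30 passed the filter on low values (above the median of the array on at least 4 of 18 arrays) among 7300 genes tested. The other 26 members were not tested, and 25 of them lay below the median on every array.

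The series asked how lung tumours of different stage respond when p53 is restored. Tumours were microdissected from C57/B6-129SvJae mice of 10 weeks, and treated mice had received 2 intraperitoneal injections of tamoxifen, with collection 7 days after the first. The 4 groups were 6 treated grade 3 tumours, 4 treated grade 2 tumours, 4 untreated grade 3 tumours and 4 untreated grade 2 tumours, where grade 3 tumours were labelled adenocarcinomas and grade 2 tumours adenomas. The labels give no alleles, and name neither a promoter nor a Cre line nor a vehicle for the untreated mice. The 18 tumours came from 6 mice. Mouse 8688, a female, gave all 6 tumours of the treated grade 3 group and 3 of those in treated grade 2, whose last tumour was from mouse 8639, a male. The untreated tumours came from 4 males, with 8584T3, 8565T1, 8629T10 and 8629T12 in grade 3 and 8700T1, 8700T3, 8565T3 and 8565T4 in grade 2. In grade 3, treatment, animal and sex cannot be told apart. In grade 2 no mouse gave both treated and untreated tumours, and 8639T4 alone separates treatment from sex. Tumours of a mouse share their animal, so p-values describe the spread between tumours more than between mice.

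Values are log2 expression values normalised by the submitters, so that a difference of 1 is a change of 2-fold. Array medians lay between 6.05 and 6.18, and the correlation between arrays lay between 0.974 and 0.997. The excess of 3' over 5' control signal, a sign of RNA degradation, was read as the mean of the Gapdh and b-actin controls. It was 2.62 for 8688T3 and 1.85 for 8639T4 and at most 1.05 in the other tumours. The transferrin receptor and pyruvate carboxylase controls were left out, as their 5' signal was not above the median on every array. Their excess ran from 2.23 to 4.71, and neither 8688T3 nor 8639T4 was highest. Most markers of the labelled tissue were present: 9 of 10 measured genes of alveolar type 2 cells and tumour epithelium were tested, and their mean lay between 11.73 and 12.47 in all tumours. The gene of this list that was not tested, Nkx2-1, was above the median on 0 arrays. No measured marker of basal-like epithelium (0 of 5) or cartilage (0 of 7) passed the filter. In pieces of whole tumour, fewer cells of a type and less RNA per cell cannot be told apart.

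Fibrillar collagens (types I, III and V) are made mainly by fibroblasts and form the fibres of the stroma. Type IV collagen and the laminins, which assemble as trimers of an alpha, a beta and a gamma chain, form the sheet of basement membrane on which epithelium and endothelium rest. Fibulins are secreted glycoproteins that link basement membrane and elastic fibres, and elastin gives the lung its recoil.

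Several members sit beside each other in the genome, and 7 such neighbouring pairs were found in the reference: Col4a1 with Col4a2, Col4a3 with Col4a4, Col4a5 with Col4a6, Col6a1 with Col6a2, Col3a1 with Col5a2, Col9a1 with Col19a1, and Dcn with Lum. Col4a1 and Col4a2 are transcribed in opposite directions from starts that lie within a stretch of 22 bases, and both were tested, so this stretch, bounded by their annotated RefSeq starts (GRCm38.p6, chr8:11312805-11312826, plus strand) is shown first. The upstream windows of Fbln1, the only member past the threshold in any comparison, and of Col1a2 and Col3a1, 2 fibrillar chains with values that lay lower in treated grade 2 tumours, follow (GRCm38.p6, chr15:85205699-85205948, chr6:4505368-4505617 and chr1:45311288-45311537, all on the plus strand). Capitals mark 3 motifs on either strand, the CCAAT box, the GC box GGGCGG and the TATA box TATAAA.
Col4a2 and Col4a1 starts: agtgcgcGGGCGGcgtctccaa
Fbln1: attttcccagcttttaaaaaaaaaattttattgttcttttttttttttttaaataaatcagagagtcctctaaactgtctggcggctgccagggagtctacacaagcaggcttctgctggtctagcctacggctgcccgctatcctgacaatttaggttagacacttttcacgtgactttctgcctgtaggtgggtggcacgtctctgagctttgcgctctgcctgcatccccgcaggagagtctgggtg
Col1a2: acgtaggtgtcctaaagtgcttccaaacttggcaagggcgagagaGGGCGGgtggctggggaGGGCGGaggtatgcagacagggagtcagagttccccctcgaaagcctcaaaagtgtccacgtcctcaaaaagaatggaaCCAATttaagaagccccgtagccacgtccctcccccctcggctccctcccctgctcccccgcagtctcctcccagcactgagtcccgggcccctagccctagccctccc
Col3a1: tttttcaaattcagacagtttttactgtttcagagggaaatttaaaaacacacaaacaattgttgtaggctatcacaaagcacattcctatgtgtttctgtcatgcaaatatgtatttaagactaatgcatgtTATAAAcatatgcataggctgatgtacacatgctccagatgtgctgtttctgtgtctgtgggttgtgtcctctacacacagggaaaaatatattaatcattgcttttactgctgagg

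The RefSeq table held promoters for 38 of the 56 members in 45 windows, and each window was read over the 250 bases before the start. CCAAT stood in 15 of the 45 windows, against 33.8% of all 32851 windows in the table. GGGCGG stood in 21 of the 45 windows, against 32.7% of all windows, and TATAAA in 6, against 12.4%. The half-site consensus of p53 stood in 3 of the 45 windows (Sparc, Col9a2 and Col20a1), against 7.13% of all windows. Fbln1 had 2 windows with different starts: the one printed holds none of these motifs, and the other holds GGGCGG. These are matches of letters only, with no test, and motifs were counted where they overlapped each other.

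The members tested by role were 5 of 9 fibrillar collagens, 1 of 9 fibril-associated collagens, 4 of 6 chains of type IV collagen, 3 of 3 of type VI, 2 of 2 multiplexins, 4 of 5 laminin alpha chains, 3 of 3 beta chains, 1 of 2 gamma chains, 2 of 4 fibulins and 5 of 6 other matrix genes. None of the 4 network and anchoring collagens (such as Col8a1) and none of the 3 transmembrane collagens (such as Col13a1) was tested. Lum, a small proteoglycan that binds collagen fibrils, lay below the median on every array, with values from 2.82 to 5.11, whereas its neighbour Dcn lay above it on all 18. Of the tested members, 26 lay above the median on all 18 arrays, and the others did so on 17 (Col4a3), 15 (Fbln1), 10 (Col14a1) and 6 arrays (Col5a1). For these 4 genes the filter was passed through some tumours and not others.

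**Figure D1:**
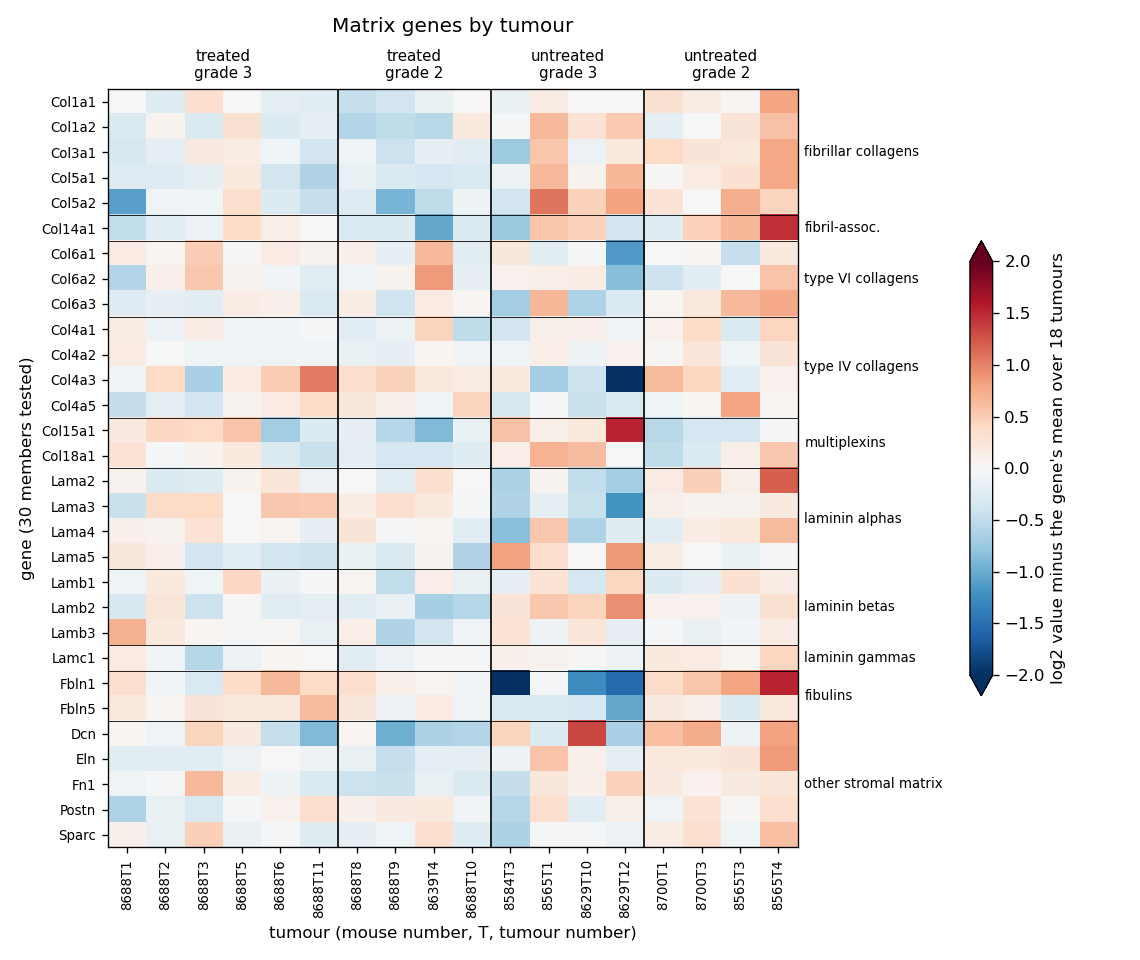
Log2 value of each of the 30 tested members (rows, by role) in each of 18 tumours (columns, by group), minus the mean of the gene over all tumours; colours are clipped at 2 on either side. Untreated grade 2 tumour 8565T4 is red for most rows and holds the highest value of 13 of the 30 genes, and Fbln1 is blue in 8584T3, 8629T10 and 8629T12.

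The comparison of grade within untreated tumours gave the only call. Fbln1, a fibulin of basement membranes and elastic fibres, was lower in untreated grade 3 than in untreated grade 2 tumours. Its values were 4.17 in 8584T3, 6.44 in 8565T1, 5.20 in 8629T10 and 4.92 in 8629T12, against 6.85 in 8700T1, 7.01 in 8700T3, 7.25 in 8565T3 and 7.98 in 8565T4. All 4 grade 3 tumours lay below all 4 grade 2 tumours. The treated tumours lay from 6.16 to 7.10 with a median of 6.82 in grade 3, and at 6.80, 6.58, 6.51 and 6.41 in grade 2. Group means were 5.18 ± 0.94 (SD, n = 4) and 7.27 ± 0.50 (SD, n = 4) in untreated grade 3 and grade 2, and 6.69 ± 0.35 (SD, n = 6) and 6.57 ± 0.17 (SD, n = 4) in treated grade 3 and grade 2.

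The fitted difference of Fbln1 between grades in untreated tumours was -1.95 (SE 0.35), or 3.85-fold lower in grade 3, with an adjusted p of 0.0248 in limma after Benjamini-Hochberg adjustment over 7300 genes. It was 1 of 30 members called, against 0.178% of all genes tested (13 of 7300). The call was lost when 8629T12 (adjusted p = 0.0635), 8700T3 (0.0677) or 8565T4 (0.182) was left out, when mouse 8629 (0.123) or mouse 8700 (0.241) was left out, and when the spread was taken from the untreated tumours alone (0.229), and over its alternatives the adjusted p ran from 0.00164 to 0.999. Mouse 8565 held tumours of both grades, and within it the grade 3 tumour lay 1.18 below the mean of the grade 2 tumours. With mouse as a fixed block the difference was -1.18, with an adjusted p of 0.999. A second Fbln1 probe set, above the median on 1 array, gave a plain difference of -1.36, and with the mean of both probe sets the adjusted p was 0.085.

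Of the 30 tested members, 9 had an unadjusted p under 0.05 in this comparison, against 12.5% of all genes, and 6 of these 9 were lower in grade 3. The median difference of the members was -0.18 and that of all genes tested was 0.00. Of the members 9 of 30 lay above 0 and 21 below, where 49.9% of all genes lay above. The groups did not overlap for 4 members (Fbln1, Lama2, Lama3 and Col15a1), against 6.45% of all genes. Without 8565T4 the median of the members was -0.07, and with mouse as a fixed block it was -0.02.

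Among the laminins, the alpha chains lay on both sides of 0. Lama3, an alpha chain of epithelial laminin, had values of 8.61, 9.01, 8.76 and 8.01 in untreated grade 3 tumours (8584T3, 8565T1, 8629T10, 8629T12), against 9.31, 9.28, 9.28 and 9.39 in untreated grade 2. The groups did not overlap, and the fitted difference was -0.64 (SE 0.23, adjusted p = 0.286). Lama2, the alpha chain of muscle and mesenchymal laminins, differed by -0.86 (SE 0.23, adjusted p = 0.154), with values of 6.41, 7.11, 6.56 and 6.37 against 7.20, 7.52, 7.16 and 8.24. Lama5, the broad epithelial alpha chain, had the opposite sign, at 0.50 (SE 0.21, adjusted p = 0.354), as did Lamb2 at 0.43 (SE 0.19, adjusted p = 0.348). Lamc1, the common gamma chain, averaged 8.81 ± 0.09 in grade 3 and 9.0 ± 0.16 in grade 2 (SD, n = 4 each), and Lamb3, a beta chain of epithelial laminin, 9.34 ± 0.23 and 9.26 ± 0.12 (SD, n = 4 each). None of these laminin differences passed the threshold.

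Chains of type IV collagen lay below 0 in 4 of 4, with none called and 0 at an unadjusted p under 0.05. Col4a3, a chain of the alveolar and glomerular basement membrane, had values of 7.28, 6.41, 6.68 and 4.49 in untreated grade 3, so that 8629T12 stood lowest of all 18 tumours, against 7.73, 7.52, 6.86 and 7.18 in untreated grade 2. The fitted difference of Col4a3 was -0.97 (SE 0.47, adjusted p = 0.412). Its neighbour Col4a4 was not tested. Of the head-to-head pair, Col4a1 averaged 11.76 ± 0.22 and 11.97 ± 0.33 (difference -0.18, SE 0.19), and Col4a2 averaged 12.34 ± 0.12 and 12.44 ± 0.17 (difference -0.08, SE 0.11; SD, n = 4 each). Both multiplexins, which are proteoglycan collagens of basement membrane zones, lay above 0, and Col15a1 was at 7.61, 7.14, 7.23 and 8.54 in grade 3 against 6.46, 6.68, 6.68 and 6.98 in grade 2. Col15a1 differed by 0.81 (SE 0.33, adjusted p = 0.332) although its groups did not overlap.

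Markers of some other cell types lay to one side in this comparison. Of 12 endothelial markers tested, 12 lay below 0 in untreated grade 3 (median -0.64), as did 7 of 7 markers of alveolar type 1 cells (median -0.30) and 6 of 9 of fibroblasts and pericytes (median -0.11). None was called, and 6 endothelial, 2 alveolar type 1 and 4 fibroblast and pericyte markers had an unadjusted p under 0.05. The mean of the endothelial markers ran from 7.65 to 8.38 in untreated grade 3 and from 8.20 to 9.13 in untreated grade 2, and that of the alveolar type 1 markers from 10.55 to 10.89 and from 10.91 to 11.33. Their part in the results for Fbln1, Lama3 and Col4a3 was not tested.

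**Figure D2:**
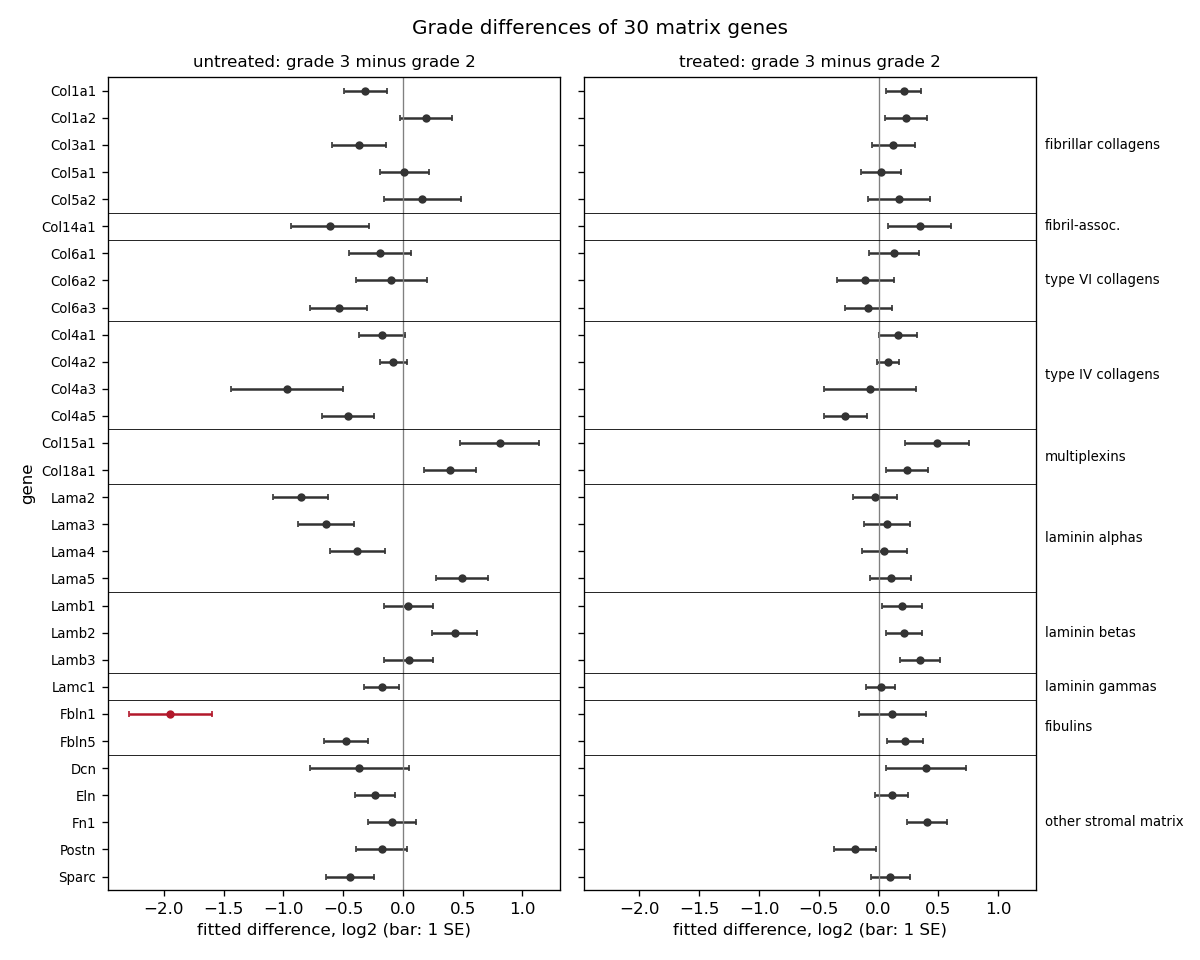
Fitted log2 difference of grade 3 minus grade 2 (horizontal axis) with 1 SE for each of the 30 tested members (vertical axis, by role), in untreated tumours (left) and treated tumours (right); red marks an adjusted p under 0.05. Fbln1 at -1.95 in untreated tumours is the one red point, and no treated difference lies further from 0 than 0.49.

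In treated tumours the members of the 2 grades were close. No member was called, as no gene was called among all 7300 (0% called), and 141 genes, or 1.93%, had an unadjusted p under 0.05. One member did so: Fn1, fibronectin, the glycoprotein through which integrins bind the matrix, at 0.40 (SE 0.17, adjusted p = 0.997). Its values ran from 10.40 to 11.35 with a median of 10.65 in treated grade 3, where 8688T3, the tumour with the largest 3' excess, was highest, and were 10.28, 10.25, 10.55 and 10.40 in treated grade 2. The median difference of the members was 0.12, against 0.02 for all genes, with 24 of 30 above 0, against 55.5% of all genes. The groups overlapped for all 30 members, against 0.781% of genes that did not overlap. Within mouse 8688 alone, 6 grade 3 against 3 grade 2 tumours, the median of the members was 0.15, and Fbln1 differed by 0.10.

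Treatment in grade 3 tumours asked whether the matrix genes of adenocarcinomas differed after p53 was restored. No member passed, against 0.466% of all genes (34 of 7300), and the lowest adjusted p was 0.104, for Fbln1. As many members lay above 0 as below, 15 each, where 56.9% of all genes lay above. The median difference was 0.02, against 0.04 for all genes. At an unadjusted p under 0.05 there were 7 members, against 8.84% of all genes, with Fbln1, Fbln5 and Lama3 higher and Lamb2, Lama5, Col5a1 and Col5a2 lower in treated tumours.

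Both tested fibulins were on the high side. For Fbln1, at the values given above, the treated and untreated grade 3 tumours overlapped only through 8565T1, and the fitted difference was 1.51 (SE 0.38, adjusted p = 0.104), or 2.84-fold. Without 8565T1 the difference was 1.97, with an adjusted p of 0.0105, the lowest over its alternatives. With any other single tumour left out instead, Fbln1 did not pass the threshold. Fbln5, which binds elastin and cross-linking enzymes in elastic fibres, ran from 9.41 to 9.96 with a median of 9.56 in treated grade 3, against 9.06 in 8584T3, 9.06 in 8565T1, 9.01 in 8629T10 and 8.32 in 8629T12. The groups did not overlap, and the fitted difference was 0.73 (SE 0.20, adjusted p = 0.144), or 1.66-fold higher in treated tumours. Without 8584T3 Fbln5 had an adjusted p of 0.0337, but it did not pass with any other single tumour left out instead. Fbln2, which was not tested because it lay below the median on every array, ran the other way, from 2.93 to 3.81 in treated grade 3 against 4.18, 4.63, 4.15 and 5.75 in untreated grade 3.

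The laminins of treated grade 3 tumours differed in both directions, with none called. Lamb2, a beta chain of vascular and muscle basement membrane, ran from 7.94 to 8.62 with a median of 8.17 in treated grade 3, against 8.63, 8.92, 8.82 and 9.30 in untreated grade 3. The groups of Lamb2 were separated by the gap between 8.62 and 8.63 only. The fitted difference was -0.74 (SE 0.20, adjusted p = 0.144), and without 8584T3 the adjusted p was 0.0301. Leaving out any other single tumour instead did not bring Lamb2 past the threshold. Lama5 differed by -0.62 (SE 0.24, adjusted p = 0.386) and its second probe set by a plain difference of -0.70. Lama3 differed by 0.82 (SE 0.26, adjusted p = 0.227), with treated values from 8.76 to 9.75 (median 9.60). The groups did not overlap for 2 members, Fbln5 and Lamb2, against 4.92% of all genes.

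All 5 tested fibrillar collagens lay below 0 in grade 3, with none called. Col5a2, a chain of type V collagen, which regulates the width of type I fibrils, ran from 7.92 to 9.36 with a median of 8.83 in treated grade 3, against 8.64, 10.08, 9.48 and 9.82 in untreated grade 3. The fitted difference of Col5a2 was -0.75 (SE 0.35, adjusted p = 0.563). Col1a1, the main chain of type I collagen, averaged 10.88 ± 0.22 (SD, n = 6) after treatment against 10.94 ± 0.12 (SD, n = 4) without it, and Col3a1 averaged 11.33 ± 0.23 (SD, n = 6) and 11.42 ± 0.54 (SD, n = 4). A second probe set of Col3a1 gave a plain difference of -0.69 where the first gave -0.09, and a second probe set of Fn1 gave -0.75 where the first gave -0.03, so single values of these genes depend on the probe set.

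Of the markers, Rtkn2, an alveolar type 1 gene, was called as higher in treated grade 3 tumours (1.95, SE 0.25, adjusted p = 0.0015), and 7 of 7 alveolar type 1 markers lay above 0, with a median of 0.37. Their mean ran from 10.99 to 11.31 in treated and from 10.55 to 10.89 in untreated grade 3, without overlap. Endothelial markers lay above 0 in 10 of 12 (median 0.41), smooth muscle markers in 0 of 3 (median -0.71), and fibroblast and pericyte markers in 5 of 9 (median 0.19). Their part in the differences of Fbln5, Lama3 and Lamb2 was not tested.

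**Figure D3:**
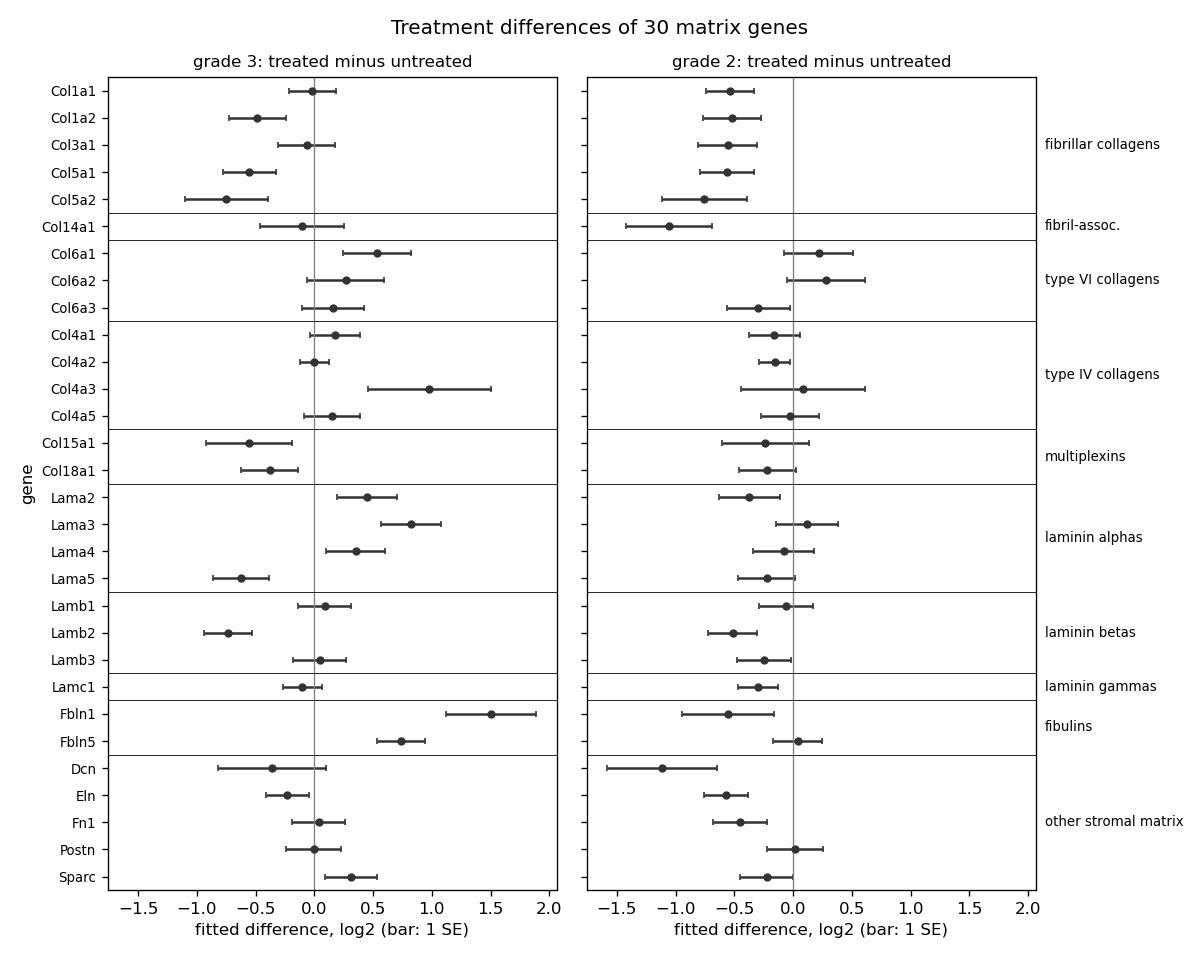
Fitted log2 difference of treated minus untreated (horizontal axis) with 1 SE for each of the 30 tested members (vertical axis, by role), in grade 3 (left) and grade 2 tumours (right). No member had an adjusted p under 0.05; the 5 fibrillar collagens lie at or below 0 in both panels, and Fbln1 is at 1.51 in grade 3 and at -0.55 in grade 2.

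In grade 2 tumours the members lay lower in treated than in untreated samples without any of them passing the threshold. The median difference was -0.24, against 0.02 for all genes. Of the members 6 of 30 lay above 0 and 24 below, where 53.9% of all genes lay above. No member was called, against 0.0685% of all genes (5 of 7300), and the lowest adjusted p was 0.446, for Eln. At an unadjusted p under 0.05 there were 8 members, all lower in treated tumours, against 6.99% of all genes: Col1a1, Col1a2, Col3a1, Col5a1, Col14a1, Dcn, Eln and Lamb2. The groups did not overlap for 10 of 30 members, all lower in treated tumours, against 8.08% of all genes. Both counts include Col5a1 and Col14a1, which passed the filter mainly through tumours of other groups. In treated grade 2 they reached at most 5.87 and 6.08, where array medians lay between 6.05 and 6.18. Beside this, 0 of 3 smooth muscle markers lay above 0 (median -0.94), 2 of 12 endothelial markers (median -0.23), 2 of 9 of alveolar type 2 cells and tumour epithelium (median -0.25), 4 of 9 of fibroblasts and pericytes (median -0.21) and 3 of 7 of alveolar type 1 cells (median -0.01). The mean of the smooth muscle markers ran from 6.61 to 7.68 in treated and from 6.78 to 9.36 in untreated grade 2. None of these markers was called, and their part in the levels of the matrix genes was not tested.

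The fibrillar collagens lay between -0.76 and -0.52, all 5 on the same side. Col3a1, the chain of type III collagen in distensible tissue, was at 11.36, 11.02, 11.27 and 11.22 in treated grade 2 (8688T8, 8688T9, 8639T4, 8688T10), against 11.84, 11.70, 11.66 and 12.22 in untreated grade 2. The groups did not overlap, and 8565T4 was the highest of all 18 tumours. The fitted difference of Col3a1 was -0.56 (SE 0.25, adjusted p = 0.704), and that of its neighbour Col5a2 was -0.76 (SE 0.36, adjusted p = 0.718). Col1a1 was at 10.48, 10.55, 10.80 and 10.92 against 11.24, 11.08, 10.97 and 11.73, also without overlap, at -0.54 (SE 0.20, adjusted p = 0.557), and its partner chain Col1a2 was at -0.52 (SE 0.25, adjusted p = 0.711). Second probe sets gave plain differences of -0.92 for Col1a1, -0.78 for Col1a2 and -0.68 for Col3a1.

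Col14a1, a collagen on the surface of type I fibrils, was at 6.04, 6.08, 5.32 and 6.08 in treated grade 2, against 6.11, 6.81, 7.01 and 7.80 in untreated grade 2. The groups were separated by the gap between 6.08 and 6.11 only, and the fitted difference was -1.06 (SE 0.37, adjusted p = 0.501). Dcn, decorin, a small proteoglycan that coats collagen fibrils, was at 9.28, 8.25, 8.59 and 8.65 against 9.82, 9.97, 9.13 and 10.03, and overlapped through 8688T8 and 8565T3. The fitted difference of Dcn was -1.12 (SE 0.47, adjusted p = 0.673), or 2.17-fold lower. Eln, elastin, was at 10.85, 10.52, 10.79 and 10.79 against 11.20, 11.19, 11.25 and 11.84, without overlap, at -0.57 (SE 0.19, adjusted p = 0.446).

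The 4 chains of type IV collagen had a median difference of -0.09. Col4a1 averaged 11.72 ± 0.40 and 11.97 ± 0.33 and Col4a2 averaged 12.25 ± 0.09 and 12.44 ± 0.17 (SD, n = 4 each), with the highest treated value of both in 8639T4. Lamb2 was at 8.17, 8.25, 7.71 and 7.80 against 8.46, 8.46, 8.27 and 8.68, without overlap, at -0.51 (SE 0.21, adjusted p = 0.659), so that it lay lower in treated tumours of both grades. Of type VI collagen, the beaded filament collagen around cells, 2 of 3 chains had a positive sign, the neighbours Col6a1 (10.72 ± 0.39 against 10.58 ± 0.28) and Col6a2 (10.11 ± 0.47 against 9.93 ± 0.43; SD, n = 4 each), and Col6a3 a negative one, at -0.30 (SE 0.27). For Col6a1 and Col6a2 8639T4 was the highest of all tumours, and the 3 treated grade 2 tumours of mouse 8688 averaged 10.54 and 9.88, below the untreated means. The 3' excess of 8639T4 was 1.85, and 8688T3, with the largest excess, stood at 11.13 and 10.48. The part of RNA quality in these values was not tested. Fbln1 was lower in treated grade 2 without overlap, at -0.55 (SE 0.39, adjusted p = 0.832), Fbln5 had equal means (9.40 ± 0.17 and 9.40 ± 0.23, SD, n = 4 each), and Fbln2, not tested, was at 3.19, 2.93, 2.96 and 3.27 against 3.92, 4.03, 4.11 and 5.37.

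Periostin (Postn), a matricellular protein of activated fibroblasts, and Sparc, a collagen-binding one, are secreted by stromal cells of many tumours. Postn stood at 10.41 ± 0.33 (SD, n = 6) and 10.62 ± 0.12 in treated tumours of grade 3 and 2, and at 10.45 ± 0.40 and 10.67 ± 0.20 in untreated ones (SD, n = 4 each). Sparc stood at 12.40 ± 0.26 (SD, n = 6), 12.35 ± 0.26, 12.19 ± 0.29 and 12.64 ± 0.29 (SD, n = 4 each) in the same order. Neither passed the threshold in any of the 5 comparisons.

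**Figure D4:**
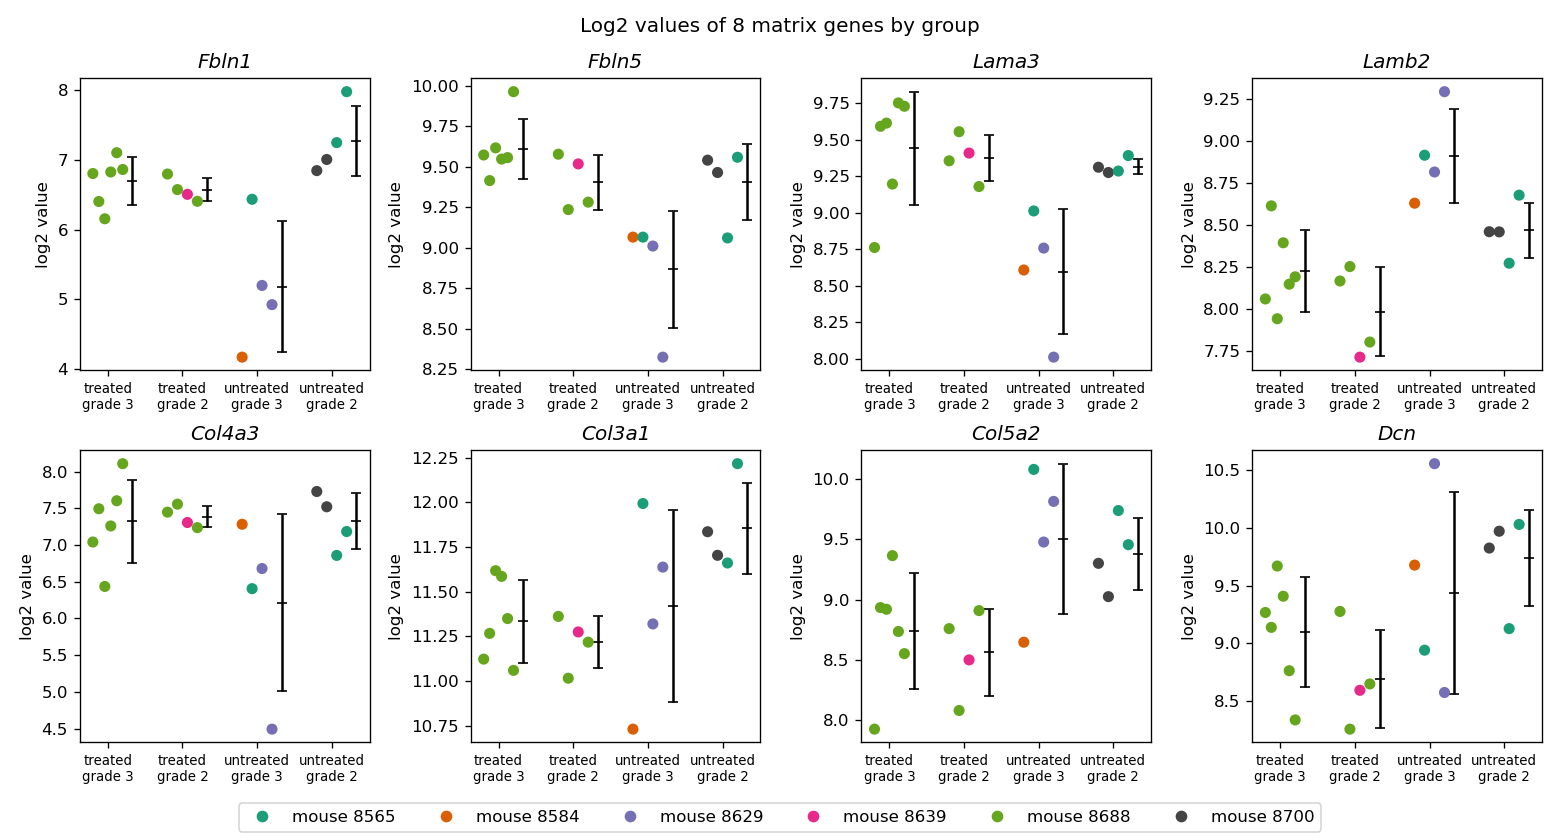
Log2 values (vertical axis) of 8 members in the 4 groups (horizontal axis); each point is a tumour coloured by mouse, and the bar beside each group is the mean with 1 SD. Treated grade 3 points come from mouse 8688 alone; Fbln1 is as low as 4.17 in untreated grade 3, and Col3a1 in untreated grade 2 lies wholly above treated grade 2.

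The grade 2 comparison and the untreated grade comparison share their 4 untreated grade 2 tumours, and 8565T4 stood apart among these. It held the highest value of 18 tumours for 13 of 30 members, against 11.3% of all genes tested (823 of 7300), and the lowest for none, against 12.1%. The 13 were Col1a1, Col3a1, Col5a1, Col14a1, Col4a2, Col6a3, Lama2, Lama4, Lamc1, Fbln1, Eln, Postn and Sparc. The means of the fibroblast and pericyte, smooth muscle (3 tested) and endothelial markers were also highest in 8565T4, at 9.43, 9.36 and 9.13, beside its matrix genes. Not every marker did so: Rgs5, on the fibroblast and pericyte list, was lowest of all 18 tumours there, at 9.51. Means of alveolar type 1, alveolar type 2 and tumour epithelium, and macrophage markers were high but not highest there, at 11.33, 12.31 and 10.46. Without 8565T4 the median difference of the members in grade 2 was -0.19. The lowest values were spread differently. In untreated grade 3, 8584T3 and 8629T12 held 6 members each (20.0% of members), against 17.8% and 12.9% of all genes, so 8584T3 was near its share over all genes. In treated grade 2, 8688T9 held 5 (16.7%), against 2.12%.

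The difference between the treatment differences of the 2 grades was tested directly as an interaction. No member passed, as no gene did (0% called), and 665 genes, or 9.11%, had an unadjusted p under 0.05. Among the members 6 did so, all with a higher treated-minus-untreated difference in grade 3: Fbln1, Fbln5, Lama2, Lama3, Col14a1 and Col1a1. Fbln1 had the largest value, at 2.06 (SE 0.45, adjusted p = 0.315), and Fbln5 was at 0.70 (SE 0.24, adjusted p = 0.539). Without 8565T1, whose Fbln1 value was the highest of its group, the interaction of Fbln1 was 2.68 with an adjusted p of 0.0103. That was its lowest over the alternatives, and it did not pass with any other single tumour left out. The median of the members was 0.33, against 0.02 for all genes, with 24 of 30 above 0, against 52.8% of all genes. This comparison uses all 4 groups, so it shares its samples with the others.

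Genes that build, bind and cut the matrix were read from lists that hold no tested member, and of the 80 tested genes on 7 lists none was called in any of the 5 comparisons. At an unadjusted p under 0.05 there were 10 for treatment in grade 3 (12.5%, against 8.84% of all genes), 6 for treatment in grade 2 (7.5%, against 6.99%) and 11 for the interaction (13.8%, against 9.11%). There were 26 for grade in untreated tumours (32.5%, against 12.5%), 20 of them lower in grade 3, and 2 for grade in treated tumours (2.5%, against 1.93%). Of 17 tested genes of collagen processing and crosslinking, 11 lay above 0 for treatment in grade 3 (median 0.10), 6 for treatment in grade 2 (median -0.10) and 7 for grade in untreated tumours (median -0.07). Pcolce2, an enhancer of procollagen cleavage, came nearest to the threshold, at -2.54 (SE 0.54, adjusted p = 0.0718) for grade in untreated tumours, and Loxl1, an elastin cross-linking oxidase, was at -0.98 (SE 0.32, adjusted p = 0.238). Of 7 elastic fibre genes, 1 lay above 0 for treatment in grade 2 (median -0.26) and 2 for grade in untreated tumours (median -0.26), where Mfap5, a microfibril glycoprotein, was at -0.98 (SE 0.32, adjusted p = 0.229).

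Of 4 small leucine-rich proteoglycans, the family of decorin, 0 lay above 0 for treatment in grade 2 (median -0.31). Fmod, fibromodulin, which binds type I collagen, had means of 6.31 ± 0.31 in treated and 8.22 ± 0.69 in untreated grade 2 (SD, n = 4 each), at -1.95 (SE 0.54, adjusted p = 0.285), and of 6.43 ± 0.70 (SD, n = 6) and 8.17 ± 0.82 (SD, n = 4) in grade 3, at -1.65 (SE 0.53, adjusted p = 0.241). Of 15 matricellular genes, 3 lay above 0 for treatment in grade 2 (median -0.50), and Ccn3, a secreted regulator of cell growth, was among these at 2.28 (SE 0.74, adjusted p = 0.446). Matrix receptors, mainly integrins, and matrix proteases with their inhibitors had medians between -0.16 and 0.07 over the 5 comparisons (16 tested genes on each list). Single proteases and inhibitors lay on both sides: 7 of 16 had an unadjusted p under 0.05 for grade in untreated tumours, 3 of them higher in grade 3, and 4 of 16 for treatment in grade 3, 1 of them higher in treated tumours. Of the 5 other basement membrane genes, 4 lay above 0 for treatment in grade 3 (median 0.13) and 2 for treatment in grade 2 (median -0.26). Macrophage markers (7 tested) had medians between -0.03 and 0.12, and mesothelial markers (3 tested) between -0.11 and 0.10.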

How the data were processed

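Total RNA of 18 microdissected tumours (100 ng each) was amplified and hybridised to 1 array per tumour. The submitters' processing notes name GCRMA 2.20.0 and R 2.11.0, and the log2 values the authors deposited were used with no further normalisation. Of 22690 probe sets, 20380 had 1 gene symbol in the platform annotation, 691 several, 1555 none, and 64 were controls. Genes whose value exceeded the median of its array on 4 or more arrays were fitted in R 4.3.3 with limma 3.58.1 (4 group means, mouse as a random block with an estimated correlation of 0.259, empirical Bayes). Benjamini-Hochberg adjusted p-values under 0.05 were called. Fitted differences take the mouse into account and depart slightly from differences of means. The script was tested on simulated data. Promoters and names came from RefSeq tables of GRCm38.p6; no coordinates of probe sets were used. The 18 arrays limit the precision.

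Named genes were those past the threshold, a chosen set of familiar chains, the 3 highest and lowest differences of each comparison, neighbouring pairs, 1 member per role and up to 2 genes of each list. The members and lists were chosen with earlier results of these data known. Alternatives changed the animal term, sex, normalisation, filter, probe set rule, spread model and array weights, and left out tumours and mice.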

Additional observations from a re-analysis of the deposited data

Results flagged for a closer look

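Among the named members, 108 groups of 4 or 6 tumours were screened with Dixon's test for a single tumour far from the others, and 9 were flagged, where chance flags about 1 in 20 groups. Of these, 2 fell on 8629T12 in untreated grade 3, with Col6a2 at 9.09 (others 10.04 to 10.09) and Fbln5 at 8.32 (others 9.01 to 9.06). In the same group 8584T3 was low for Sparc, at 11.76 (others 12.28 to 12.37). In untreated grade 2, 8565T4 was high for Eln, at 11.84 (others 11.19 to 11.25). In treated grade 2, 8639T4, the only tumour of its mouse, was low for Col14a1, at 5.32 (others 6.04 to 6.08), and 8688T10 was high for Col1a2, at 10.68 (others 9.90 to 9.97). In treated grade 3, 8688T1 was high for Col4a2, at 12.50 (others 12.25 to 12.34), 8688T3 for Col6a1, at 11.13 (others 10.65 to 10.80), and 8688T11 for Fbln5, at 9.96 (others 9.41 to 9.62). Of the flagged tumours, 8688T3 and 8639T4 were those with the largest 3' excess.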

How the results depend on the processing

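The count of members called depended on how animals and arrays were weighted. For treatment in grade 3 it was 0 as reported, 5 without an animal term, 5 with array weights, 2 without mouse 8584 and 1 without mouse 8565; leaving out 1 tumour at a time gave 0 to 2. For treatment in grade 2 it was 14 with array weights and 0 under every other alternative. For the interaction it was 2 with array weights, and 0 to 1 with 1 tumour left out. For grade in untreated tumours it was 1 as reported, 2 without an animal term, 5 with array weights, and 0 with animal means, with animal as a fixed block, with only the groups compared, with the mean of probe sets, without mouse 8629 and without mouse 8700; leaving out 1 tumour gave 0 to 2. For grade in treated tumours it was 0 throughout. Array weights put the correlation within mice at 0.00334, against 0.259. The counts over all genes under these alternatives are not given here, so no count above can be read as particular to the members. The cause of the shifts in these counts was not tested. No median difference of the members moved by more than 0.31, the typical SD of a member, but that for treatment in grade 3 ran from -0.08 to 0.16 and so took either sign. For the 28 differences of named members with an unadjusted p under 0.05, 968 of 1004 values under an alternative kept their direction and side of the threshold, 27 passed it, 9 (all of Fbln1 between untreated grades) lost it and 0 changed direction. For the other 107 differences of named members, those with a higher p, 234 of 3858 values changed direction and 10 passed the threshold. Signal limits the 26 members that were not tested.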
